A study of Danio rerio with 11 samples.

Results

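The transcriptomes of stage I oocytes from znf706 mutant zebrafish were compared with those of wild-type (WT) stage I oocytes, gene by gene and across functions. A gene was included when it reached at least 1 FPKM (a fragment count scaled to transcript length and library size) in at least 2 of the 4 stage I libraries. This rule kept 12754 of the 31952 gene IDs of the deposited table that had a single usable entry, and 588 of them reached that level in mutant libraries alone and 562 in WT libraries alone. The mutants carried the CRISPR/Cas9 allele tsu7d on both chromosomes and bore the genotype label MZznf706. The WT fish carried no allele named in the labels. All fish were 3-month-old females. Oocytes were freed from the ovary with a dissociation buffer and picked by pipette, about 600 stage I oocytes for each library, with 2 mutant and 2 WT libraries described as biological replicates. The matching stage II libraries, again 2 mutant and 2 WT with about 150 oocytes each, serve here to pool the spread between libraries and to follow the stage I differences into the next stage. How many females stood behind a library is not given in the sources used here, and the allele is a single mutant line.

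Stage I is the earliest stage of follicle growth in zebrafish, when the oocyte is arrested in meiotic prophase and gathers mitochondria, endoplasmic reticulum and RNA beside the nucleus in the Balbiani body, from which the germ plasm is laid down. The oocyte then enlarges through stage II, forms cortical alveoli and goes on storing the RNA and protein that the embryo will use before its own genome is switched on. Znf706 is a small zinc finger protein, and the study asks what its loss does to germ plasm and to primordial germ cells. Roles given below for single genes are general knowledge from vertebrates or, for the conserved cell machinery, from yeast and mammals, and are background to the measurements.

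The 4 stage I libraries were close in summed level. Summed FPKM ran from 849613 to 873513 in mutant libraries and from 853280 to 899582 in WT libraries, 11992 to 12323 genes reached 1 FPKM, and genes of the mitochondrial DNA held 0.314% to 0.502% of the summed FPKM. The file gives no read counts, so absolute depth is unknown. The most frequent ratio of values under 1 FPKM placed the libraries at 0.976 to 1.01 of the depth of WT replicate 1. Only ratios near 1 were searched, so this does not show that the depths were equal. Across the tested genes, libraries of the same genotype correlated at Pearson's r of 0.988 in mutants and 0.989 in WT, on the log2(FPKM + 1) scale, and 149 and 176 genes were 2-fold apart between them. A mutant and a WT library correlated at 0.912 to 0.919, and 1914 to 2208 genes were 2-fold apart. For scale, a stage II and a stage I library of WT fish correlated at 0.911 to 0.920, and 2452 to 3074 genes were 2-fold apart, more than between the genotypes at stage I. Oocyte markers were abundant in every library, at a summed 21316 and 20725 FPKM in mutants and 19466 and 21182 FPKM in WT over 24 genes. These sums do not mean that the markers were unchanged. Of 23 tested, 11 were called higher in mutants and 4 lower (47.8% and 17.4%), beside 19.7% and 29.1% of all genes.

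Markers of other ovarian cells were mostly sparse but not absent. Among 34 leukocyte markers, 12 passed the filter, 8 of them called higher and 1 lower, and their sum was 206 and 177 FPKM in mutants, against 76.2 and 71.8 FPKM in WT. Most of that difference came from arhgdig, and without it the sums were 63.5 and 55.8 FPKM in mutants and 44.05 and 44.19 FPKM in WT. The macrophage gene mpeg1.1 and the B-cell gene cd79b were listed at 0 in all 4 libraries. Granulosa and theca markers summed to 289 and 300.4 FPKM in mutants and to 350.5 and 334 FPKM in WT over 19 genes, with fshr and hsd3b1 listed at 0 throughout. Without their most abundant gene, hsd3b2, the sums were 105.6 and 110.9 FPKM in mutants and 280.1 and 257 FPKM in WT. Most of that WT level came from cyp11a1, which measured 221 and 203 FPKM there but only 0.153 and 0.0626 FPKM in mutant libraries. The lower mutant sums thus rest on cyp11a1 and do not show a fall of the list as a whole. Of the 6 tested members 2 were called higher and 3 lower. The stroma, muscle and vessel list summed to 2693 and 2412 FPKM in mutants and to 2350.5 and 2550 FPKM in WT, nearly all from 1 gene. Without that gene the sums were 35.6 and 33.3 FPKM in mutants and 38.9 and 30.4 FPKM in WT. Of 7 tested markers of stroma, muscle and vessels 1 was called higher and 1 lower, of 4 erythrocyte and thrombocyte markers 1 higher and 1 lower, and the 1 tested liver marker was called lower. In such bulk samples fewer cells of a type and less RNA per cell cannot be told apart.

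The targeted gene itself was still transcribed. znf706 measured 181 and 147 FPKM in mutant libraries, against 232 and 238 FPKM in WT libraries (log2 fold change -0.52 ± 0.11, adjusted p = 0.0045, limma on log2(FPKM + 1) over all 12754 genes with Benjamini-Hochberg adjustment, ± SE here and below). Both mutant libraries lay under both WT libraries. These FPKM do not show which part of the transcript was read, so they do not check the lesion.

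The mutant stage I transcriptome differed broadly from WT. At an adjusted p under 0.05, 6223 of 12754 genes were called (48.8%), 2512 higher in mutants (19.7%) and 3711 lower (29.1%). Changes of at least 2-fold were called for 1826 genes (14.3%), 841 higher (6.59%) and 985 lower (7.72%), and of at least 8-fold for 82 higher and 85 lower. The plot of mutant against WT levels shows the called genes as a band along both sides of the diagonal, with sparse genes far from it. Calls were retained with each of the 4 stage I libraries left out in turn for 3795 genes, 1558 higher and 2237 lower, and the genes named below are among them unless said otherwise. Mutant and WT libraries did not overlap for 9471 genes (74.3%). The lean towards falls depended on scaling. Median-of-ratios factors were 0.889 and 0.891 in mutant stage I libraries and 0.995 and 0.892 in WT replicates 1 and 2. By these factors unscaled values of WT replicate 1 leaned high, and unscaled list counts carry that lean. Higher genes made up 40.4% of the calls without further scaling, 48.4% with median-of-ratios factors and 48.9% with quantile-normalized values. With median-of-ratios factors 2980 genes were called higher and 3173 lower, and list counts under that scaling are to be read beside these. List counts without further scaling are to be read beside the 19.7% higher and 29.1% lower of all genes. Over all tested genes the log2 fold change had a median of -0.0813 without further scaling, -0.00816 with median-of-ratios factors and -0.00975 with quantile-normalized values. The medians of gene groups are stated with the first of these subtracted, as relative medians.

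**Figure D1:**
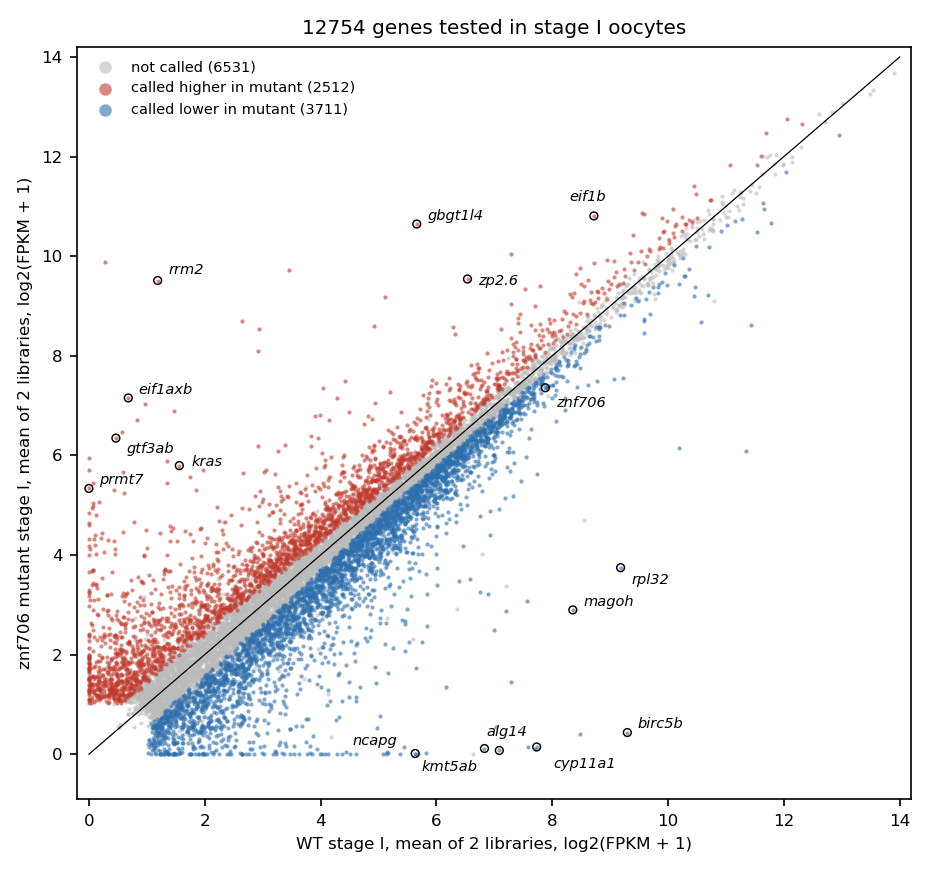
Mean of the 2 znf706 mutant stage I libraries (vertical axis) against the mean of the 2 WT stage I libraries (horizontal axis), both in log2(FPKM + 1), for the 12754 genes tested. Red points are the 2512 genes called higher in mutants, blue points the 3711 called lower and grey points the rest, the line marks equal levels, and circled genes are described in the text.

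The share of genes called lay between 43.7% and 54.5% in 5 ranges of abundance. It was 45.8% of the 1893 genes with a mean below 2 FPKM, 45.3% of the 3951 genes between 2 and 10 FPKM, 51.5% of the 4290 genes between 10 and 50 FPKM, 54.5% of the 1959 genes between 50 and 200 FPKM and 43.7% of the 661 genes at 200 FPKM or more. Large changes were more frequent among scarce RNAs. Calls of at least 2-fold covered 20.97% of the genes below 2 FPKM, 11.1% of those between 10 and 50 FPKM and 7.11% of those at 200 FPKM or more. Among the most abundant RNAs, 25.3% were called higher and 18.5% lower.

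The largest rise of all tested genes was in si:dkey-241l7.3, a gene that carries a clone-based name, at 926 and 953 FPKM in mutant libraries, against 0.216 and 0.213 FPKM in WT libraries (log2 fold change 9.60 ± 0.17, adjusted p = 1.7e-08). si:dkey-241l7.4, next to it in name, measured 848 and 837 FPKM in mutant libraries, against 9.10 and 10.9 FPKM in WT libraries (log2 fold change 6.27 ± 0.18). Both lie outside the rule for named genes, which leaves out clone-based names, and were picked for their values. Both were far above WT in both mutant libraries. si:dkey-241l7.2, close to them in name, was called lower, at a mean of 1973 FPKM in mutants and 3232 FPKM in WT (log2 fold change -0.70). Whether that call was kept with libraries left out is not given here. How reads were divided between these genes is not known.

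Among genes with other names the largest rise was in rrm2, the small subunit of ribonucleotide reductase, which makes the deoxynucleotides for DNA synthesis. The table holds this symbol under 2 gene IDs. ENSDARG00000078069 measured 766 and 694 FPKM in mutant libraries, against 1.07 and 1.51 FPKM in WT libraries (log2 fold change 8.32 ± 0.14, adjusted p = 1.7e-08). ENSDARG00000020711 measured 718 and 670.1 FPKM in mutant libraries, against 1142 and 1187 FPKM in WT libraries (log2 fold change -0.75 ± 0.07, adjusted p = 9.9e-05). The mutant libraries thus stood far above WT for the first ID and below WT for the second. Near-identical copies can exchange reads, and how they were divided between these IDs is not known, so neither change can be assigned to a copy with certainty. Summed over both IDs the level was 1484 and 1364 FPKM in mutants and 1143 and 1189 FPKM in WT.

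Other large rises took RNAs that were scarce in WT to moderate or high levels. Among genes called higher by at least 8-fold, the highest mean level in mutants was that of gbgt1l4, a glycosyltransferase of the globoside family, at 1709 and 1500.0 FPKM in mutant libraries, against 52.4 and 46.9 FPKM in WT libraries (log2 fold change 4.98 ± 0.08, adjusted p = 1.7e-08). eif1axb, an initiation factor that helps to select the start codon, measured 154 and 130.2 FPKM in mutant libraries, against 0.589 and 0.616 FPKM in WT libraries (log2 fold change 6.47 ± 0.18). kras, a RAS GTPase of growth factor signalling, measured 56.97 and 52.2 FPKM in mutant libraries, against 1.52 and 2.46 FPKM in WT libraries (log2 fold change 4.23 ± 0.16). In each case the mutant libraries were well above both WT libraries. The list of large rises also held the interleukin receptor il13ra2 (164 FPKM in mutant and 15.4 FPKM in WT oocytes, log2 fold change 3.32 ± 0.24), the cytokine osm (27.1 FPKM in mutant and 0.0885 FPKM in WT oocytes, log2 fold change 4.69 ± 0.14), the chemokine receptor ccr6a (18.5 FPKM in mutant and 0.346 FPKM in WT oocytes, log2 fold change 3.85 ± 0.14), the plasma membrane calcium pump atp2b1b (18.8 FPKM in mutant and 0.261 FPKM in WT oocytes, log2 fold change 3.97 ± 0.18) and the sialidase neu3.2 (29.8 FPKM in mutant and 0.0437 FPKM in WT oocytes, log2 fold change 4.88 ± 0.15). These levels are means of 2 libraries. The DNA recombination mediator rad52 measured 54.8 and 61.05 FPKM in mutants, against 1.76 and 1.38 FPKM in WT, and the GDP dissociation inhibitor of RAB GTPases gdi2 measured 36.4 and 40.3 FPKM in mutants, against 8.52 and 0.362 FPKM in WT.

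The largest fall was in birc5b, a copy of survivin, which acts with the chromosomal passenger complex in cell division and counters apoptosis. It measured 0.549 and 0.182 FPKM in mutant libraries, against 573 and 689 FPKM in WT libraries (log2 fold change -8.86 ± 0.18, adjusted p = 2.3e-08), which left it close to 0 in both mutant libraries. Its partner birc5a was not called and averaged 129 FPKM in mutant and 110.2 FPKM in WT oocytes. This gene was looked up after its values were seen. High WT levels were likewise missing in mutants for cyp11a1, the enzyme that begins steroid synthesis from cholesterol, at 0.153 and 0.0626 FPKM in mutant libraries, against 221 and 203 FPKM in WT libraries (log2 fold change -7.59 ± 0.17, adjusted p = 5.3e-08). alg14, a subunit of the transferase that adds the second sugar of the N-glycan precursor, measured 0 and 0.112 FPKM in mutant libraries, against 134 and 136 FPKM in WT libraries (log2 fold change -7.01 ± 0.13). kmt5ab, a copy of the histone H4 lysine methyltransferase, measured 0.0838 and 0.0821 FPKM in mutant libraries, against 116 and 109.8 FPKM in WT libraries (log2 fold change -6.72 ± 0.13). None of these mutant libraries reached 1 FPKM.

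Several falls hit parts of essential cell machines. magoh, a core protein of the exon junction complex that marks spliced RNA, measured 5.87 and 7.08 FPKM in mutant libraries, against 332 and 321 FPKM in WT libraries (log2 fold change -5.46 ± 0.14). rpl32, a protein of the large ribosomal subunit, measured 13.7 and 11.3 FPKM in mutant libraries, against 992 and 338 FPKM in WT libraries (log2 fold change -5.44 ± 0.45). The WT libraries disagreed on rpl32 by more than the mutant libraries did, but both were more than 10-fold above the mutants. ncapg, a condensin subunit, measured 0 and 0.0207 FPKM in mutant libraries, against 51.7 and 45.7 FPKM in WT libraries (log2 fold change -5.62 ± 0.15). mrps31, of the small mitochondrial ribosomal subunit, measured 0.0398 and 0 FPKM in mutant libraries, against 35.4 and 34.4 FPKM in WT libraries (log2 fold change -5.14 ± 0.17). timm17a, a channel subunit for import through the inner mitochondrial membrane, measured 9.43 and 7.70 FPKM in mutant libraries, against 111 and 102 FPKM in WT libraries (log2 fold change -3.50 ± 0.20), and chchd4a, the oxidoreductase of the intermembrane space, measured 0.101 and 0.0978 FPKM in mutants, against 41.5 and 43.2 FPKM in WT (log2 fold change -5.30 ± 0.20). How reads were divided between these genes and any copies elsewhere in the genome is not given in the sources used here. The pteridine enzyme symbol qdprb2 stood under 2 IDs, and both fell, ENSDARG00000090118 with 0.0741 and 0.0720 FPKM in mutants, against 199.8 and 218 FPKM in WT and ENSDARG00000086859 with 72.3 and 67.5 FPKM in mutants, against 1102 and 1225 FPKM in WT.

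**Figure D2:**
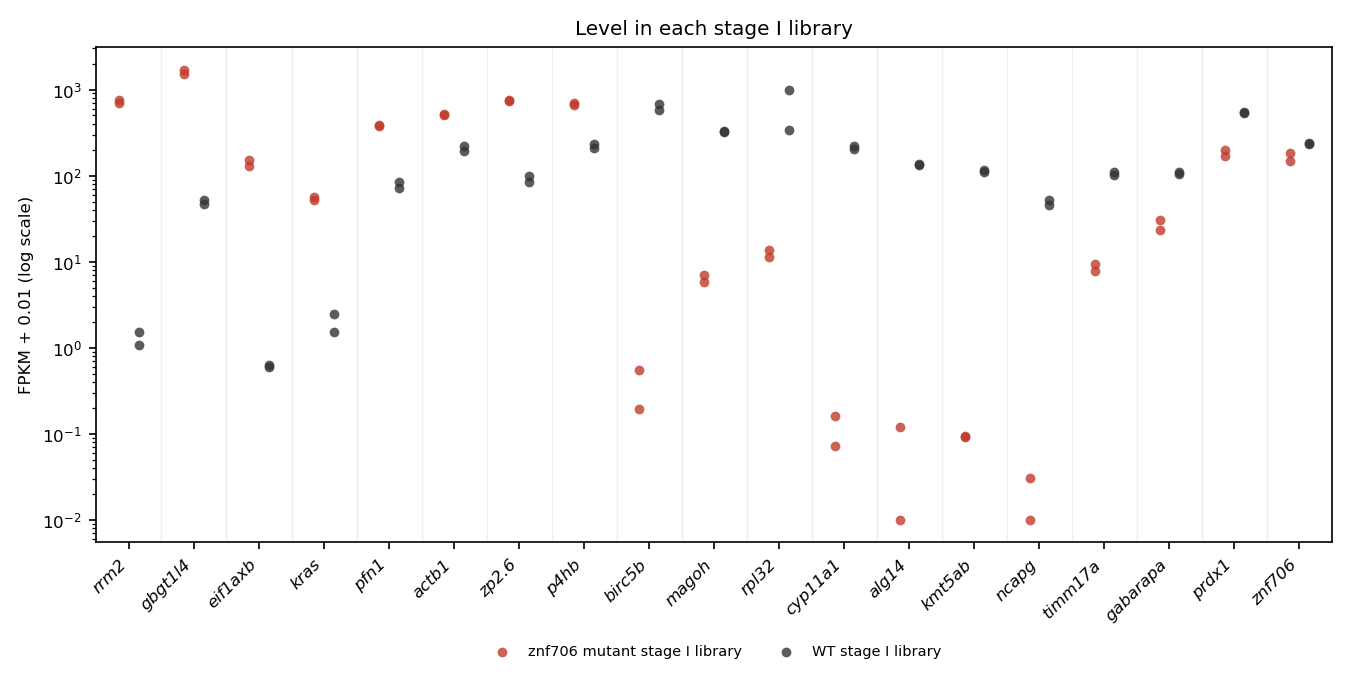
FPKM + 0.01 on a log scale in each of the 4 stage I libraries for 19 genes described in the text, mutant libraries in red to the left and WT libraries in dark grey to the right of each gene. Mutant values lie above WT for the first 8 genes and below WT for the rest, and the 2 libraries of a genotype lie close together except near 0 and for rpl32 in WT; the rrm2 shown is ENSDARG00000078069.

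Abundant RNAs of the oocyte changed by smaller factors but in large amounts. eif1b, an initiation factor, averaged 1793 FPKM in mutant and 421 FPKM in WT oocytes (log2 fold change 2.09 ± 0.07). gmnn, geminin, the inhibitor of replication licensing, averaged 1879 FPKM in mutant and 750.1 FPKM in WT oocytes (log2 fold change 1.32 ± 0.11), and sinup averaged 1839.7 FPKM in mutant and 768 FPKM in WT oocytes (log2 fold change 1.26 ± 0.12). zp2.6, an egg envelope glycoprotein, measured 742 and 747 FPKM in mutant libraries, against 84.4 and 100 FPKM in WT libraries (log2 fold change 3.00 ± 0.09), well separated between the genotypes. Beyond these the monocarboxylate transporter slc16a3 (652 FPKM in mutant and 186 FPKM in WT oocytes), the RNA-binding protein khdrbs1a (804 FPKM in mutant and 339.9 FPKM in WT oocytes), the deadenylation adaptor btg4 (1375 FPKM in mutant and 673 FPKM in WT oocytes) and the histone variant gene h2ax (459 FPKM in mutant and 174 FPKM in WT oocytes) all rose, by log2 1.81 ± 0.15, 1.24 ± 0.08, 1.02 ± 0.10 and 1.40 ± 0.12. Abundant RNAs that fell included the peroxidase prdx1, at 201 and 167 FPKM in mutants, against 544 and 531 FPKM in WT (log2 fold change -1.55 ± 0.10). The glutaredoxin glrx averaged 120.0 FPKM in mutant and 299 FPKM in WT oocytes, the elongin subunit eloca 180.2 FPKM in mutant and 439 FPKM in WT oocytes, the cap-binding protein eif4ea 43.8 FPKM in mutant and 176 FPKM in WT oocytes, the centriole protein cetn3 57.3 FPKM in mutant and 161 FPKM in WT oocytes, and the segregase vcp, which pulls ubiquitinated proteins out of membranes and complexes, 66.6 FPKM in mutant and 159.9 FPKM in WT oocytes. All of these fell by more than 2-fold.

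Genes of the early secretory pathway were called lower in mutants far more often than higher. Of 73 tested genes for COPI and COPII coats, the SEC61 channel, TMED cargo receptors and Golgi tethers, 4 were called higher and 44 lower, with a median log2 fold change of -0.28 relative to all genes. The list was matched by symbol and took in every tested symbol that begins with sec and a number. Not all members, sec14l1 among them, thus belong to these classes. The falls included copz2 and ARF5. copz2, a subunit of the COPI coat, measured 3.50 and 3.83 FPKM in mutant libraries, against 37.7 and 29.96 FPKM in WT libraries (log2 fold change -2.89 ± 0.14). ARF5, a GTPase that recruits coats to the Golgi, measured 0 and 0.0442 FPKM in mutant libraries, against 7.63 and 6.23 FPKM in WT libraries (log2 fold change -2.95 ± 0.21). The same symbol in lower case, arf5, stands under another ID, ENSDARG00000070472, looked up after values were seen. It was called higher, at 22.5 FPKM in mutant and 17.9 FPKM in WT oocytes (log2 fold change 0.31). Whether this call was kept with libraries left out is not given here. The division of reads between the 2 IDs is not known, so loss of ARF5 RNA as a whole cannot be stated. The cargo receptor tmed4 averaged 1.93 FPKM in mutant and 8.92 FPKM in WT oocytes (log2 fold change -1.76 ± 0.15) and the SEC14-like protein sec14l1 4.89 FPKM in mutant and 18.6 FPKM in WT oocytes (log2 fold change -1.74 ± 0.19). sec61a1l, the pore of the translocon and among the most abundant of the group, changed less, at 262 and 264 FPKM in mutants, against 375 and 339 FPKM in WT (log2 fold change -0.44 ± 0.07). sar1ab, the GTPase that starts COPII coats, was an exception and averaged 42.2 FPKM in mutant and 22.3 FPKM in WT oocytes (log2 fold change 0.91 ± 0.15). After median-of-ratios scaling 7 were called higher and 36 lower.

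The neighbouring compartments showed the same order of counts. Of 38 genes for endoplasmic reticulum chaperones and the unfolded protein response, 3 were called higher and 21 lower, at a relative median of -0.33. dnajb9b, an HSP40 partner of the chaperone BiP, measured 5.28 and 7.55 FPKM in mutant libraries, against 139 and 153 FPKM in WT libraries (log2 fold change -4.33 ± 0.14), and its copy dnajb9a averaged 1.13 FPKM in mutant and 8.24 FPKM in WT oocytes (log2 fold change -2.13 ± 0.30). ero1a, the oxidase that feeds disulfide formation, measured 6.02 and 7.12 FPKM in mutants, against 45.7 and 42.04 FPKM in WT (log2 fold change -2.57 ± 0.13). The lectin chaperone gene calr averaged 44.22 FPKM in mutant and 100.2 FPKM in WT oocytes (log2 fold change -1.16 ± 0.11). Of the 3 genes called higher, p4hb and pdia6 are disulfide isomerases. p4hb measured 668 and 691 FPKM in mutant libraries, against 233 and 207 FPKM in WT libraries (log2 fold change 1.63 ± 0.16), and pdia6 averaged 105 FPKM in mutant and 28.7 FPKM in WT oocytes (log2 fold change 1.84 ± 0.10), both above WT.

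Genes that build and attach glycans followed. Of 55 genes for N-glycosylation and GPI anchors, 5 were called higher and 26 lower, at a relative median of -0.24. Besides alg14, the GPI deacetylase pigl averaged 4.20 FPKM in mutant and 12.98 FPKM in WT oocytes (log2 fold change -1.42 ± 0.19) and the small oligosaccharyltransferase subunit ost4 averaged 774 FPKM in mutant and 1252 FPKM in WT oocytes (log2 fold change -0.69 ± 0.12). alg13, which forms the transferase together with alg14, rose, with 78.5 and 78.2 FPKM in mutant libraries, against 40.004 and 36.5 FPKM in WT libraries (log2 fold change 1.02 ± 0.08), so that the partners of this enzyme moved in opposite directions. Among 22 peroxisome genes 2 were called higher and 11 lower, at a relative median of -0.34. pex14, the docking protein for peroxisomal import, measured 0.735 and 0.536 FPKM in mutant libraries, against 12.3 and 12.4 FPKM in WT libraries (log2 fold change -3.03 ± 0.21), and the receptor for the second type of targeting signal, pex7, averaged 12.5 FPKM in mutant and 28.4 FPKM in WT oocytes (log2 fold change -1.12 ± 0.10).

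**Figure D3:**
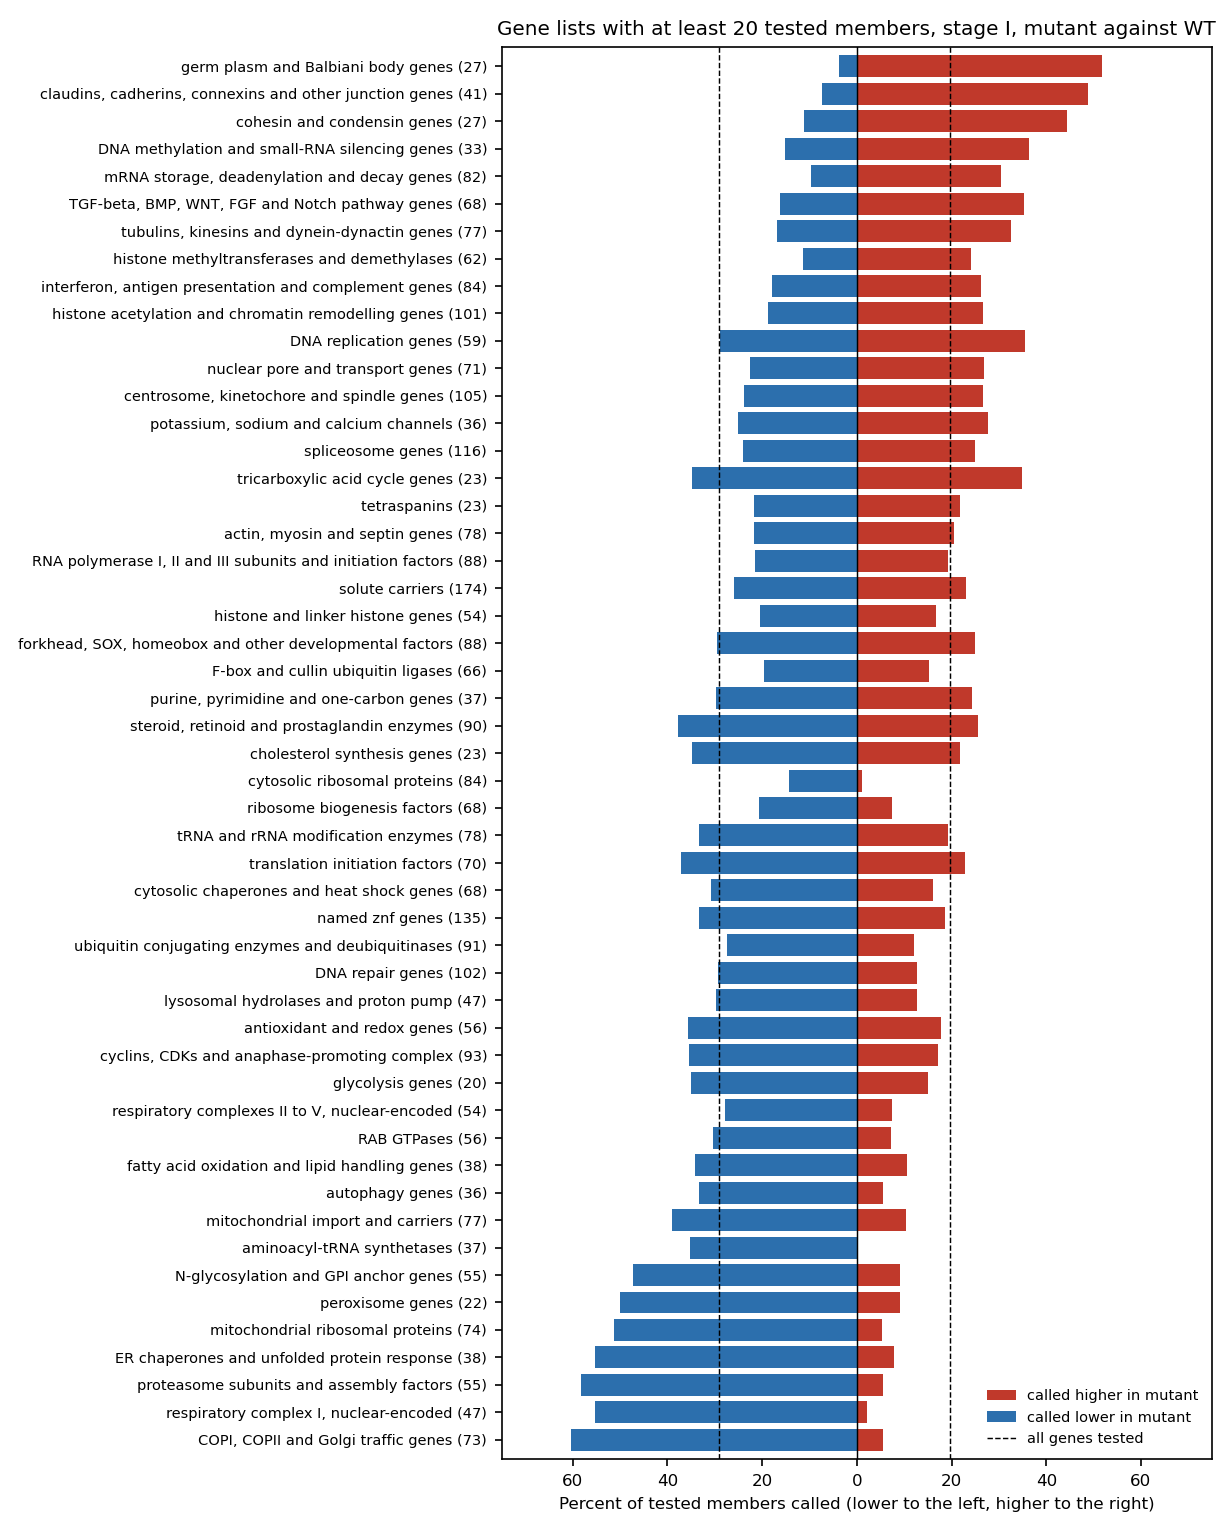
Percent of tested members called lower (blue, to the left) and higher (red, to the right) in mutant stage I oocytes for the gene lists shown, each with at least 20 tested members, the number tested in brackets. Dashed lines mark 29.1% lower and 19.7% higher among all genes tested; secretory, proteasome and mitochondrial lists stand at the bottom, and germ plasm, junction and cohesin and condensin lists at the top.

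Vesicle GTPases were mixed. Of 56 RAB genes, which direct membrane traffic, 4 were called higher and 17 lower, against 10 and 16 after median-of-ratios scaling. The unscaled shares were 7.14% higher and 30.4% lower, beside 19.7% and 29.1% of all genes. Both rab1aa (11.3 FPKM in mutant and 27.6 FPKM in WT oocytes, log2 fold change -1.20 ± 0.23) and rab1ab (19.98 FPKM in mutant and 48.3 FPKM in WT oocytes, log2 fold change -1.22 ± 0.13), which act between endoplasmic reticulum and Golgi, fell, whereas rab1bb rose (27.7 FPKM in mutant and 11.8 FPKM in WT oocytes, log2 fold change 1.19 ± 0.20). rab6ba, a Golgi RAB, measured 8.48 and 9.34 FPKM in mutants, against 0.648 and 0.708 FPKM in WT (log2 fold change 2.56 ± 0.16).

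Nuclear genes of complex I and of the mitochondrial ribosome were called lower far more often than higher. Of 47 nuclear-encoded complex I genes, which form the entry point of the respiratory chain, 1 was called higher and 26 lower, at a relative median of -0.23. The assembly factor ndufaf2 measured 6.01 and 4.98 FPKM in mutant libraries, against 41.9 and 41.1 FPKM in WT libraries (log2 fold change -2.72 ± 0.13), with the libraries of the genotypes far apart. The subunit ndufs5, an abundant RNA, averaged 178 FPKM in mutant and 306 FPKM in WT oocytes (log2 fold change -0.77 ± 0.12). Complexes II to V counted 4 higher and 15 lower of 54, or 27.8% lower beside 29.1% of all genes. Their falls included atp5mc3a, a membrane ring subunit of ATP synthase, at 66.1 FPKM in mutant and 152 FPKM in WT oocytes (log2 fold change -1.19 ± 0.07). Mitochondrial ribosomal proteins counted 4 higher and 38 lower of 74, at a relative median of -0.19, for example mrps2 at 38.7 FPKM in mutant and 80.1 FPKM in WT oocytes (log2 fold change -1.03 ± 0.08). mrpl51, at 4.64 and 4.08 FPKM in mutants, against 0 and 0.448 FPKM in WT, went the other way.

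Import genes and carriers of the mitochondrion counted 8 higher and 30 lower of 77. Besides timm17a and chchd4a, chchd7 averaged 1.98 FPKM in mutant and 14.7 FPKM in WT oocytes (log2 fold change -2.39 ± 0.20). The carrier slc25a25a, which exchanges ATP-magnesium for phosphate, rose, at 116 FPKM in mutant and 40.8 FPKM in WT oocytes (log2 fold change 1.49 ± 0.07). Of the 13 protein genes of the mitochondrial DNA, 2 were called higher and 0 lower, and both calls were lost when a library was left out. Their summed levels were 3846 and 3205 FPKM in mutants and 4286 and 2821 FPKM in WT, so the WT libraries lay on both sides of the mutants. With such a spread, few calls do not show that these genes behaved unlike the nuclear genes. After median-of-ratios scaling complex I counted 1 higher and 15 lower of 47, and mitochondrial ribosomal proteins 4 and 21 of 74. Over all 12754 genes that scaling gave 2980 higher and 3173 lower. Falls in both lists were thus fewer than without scaling, and rises stayed rare. For mitochondrial ribosomal proteins the share called lower was then not far above that of all genes. Medians relative to all genes under that scaling were -0.23 for complex I and -0.18 for mitochondrial ribosomal proteins.

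Intermediary metabolism was less uniform. Glycolysis genes counted 3 higher and 7 lower of 20, which turned to 6 and 3 after median-of-ratios scaling. The muscle-type phosphofructokinase gene pfkma measured 0.0775 and 0.176 FPKM in mutants, against 9.95 and 9.23 FPKM in WT (log2 fold change -3.23 ± 0.15). Lactate dehydrogenase genes moved in opposite directions, with ldhbb at 8.36 FPKM in mutant and 0.557 FPKM in WT oocytes (log2 fold change 2.59 ± 0.16) and ldha at 8.16 FPKM in mutant and 19.7 FPKM in WT oocytes (log2 fold change -1.17 ± 0.14). In the tricarboxylic acid cycle 8 were called higher and 8 lower of 23, among them the malate dehydrogenase mdh1aa (38.1 FPKM in mutant and 8.85 FPKM in WT oocytes, log2 fold change 1.98 ± 0.10) and the pyruvate dehydrogenase subunit pdhb (30.4 FPKM in mutant and 60.4 FPKM in WT oocytes, log2 fold change -0.97 ± 0.09). Fatty acid and lipid genes counted 4 higher and 13 lower of 38. The elongase elovl6l averaged 148 FPKM in mutant and 53.6 FPKM in WT oocytes (log2 fold change 1.45 ± 0.08), while elovl7a, another elongase, was listed at 0 in both mutant libraries (0 and 0 FPKM in mutants, against 19.2 and 20.1 FPKM in WT). Cholesterol synthesis counted 5 higher and 8 lower of 23, nucleotide and one-carbon genes 9 and 11 of 37, and antioxidant and redox genes 10 and 20 of 56. Their shares higher and lower were, in that order, 21.7% and 34.8%, 24.3% and 29.7%, and 17.9% and 35.7%. For glycolysis they were 15% and 35%, for the tricarboxylic acid cycle 34.8% and 34.8%, and for fatty acid and lipid genes 10.5% and 34.2%. Over all genes the shares were 19.7% and 29.1%, so counts near these are no trait of a list.

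Proteasome genes were also called lower more often than higher. Of 55 subunits and assembly factors 3 were called higher and 32 lower, at a relative median of -0.21. psmc1a, an ATPase of the base, measured 17.1 and 14.01 FPKM in mutant libraries, against 50.4 and 43.6 FPKM in WT libraries (log2 fold change -1.54 ± 0.14), and psmd5, a chaperone of base assembly, averaged 5.59 FPKM in mutant and 10.9 FPKM in WT oocytes (log2 fold change -0.85 ± 0.11). The catalytic subunit psmb5, at 71.9 FPKM in mutant and 40.5 FPKM in WT oocytes (log2 fold change 0.81 ± 0.10), was an exception. Autophagy genes counted 2 higher and 12 lower of 36, or 5.56% and 33.3% beside 19.7% and 29.1% of all genes. Genes of the ATG8 family, whose products coat the autophagosome, took 3 of the falls described here, with gabarapa at 30.3 and 23.3 FPKM in mutant libraries, against 111 and 103 FPKM in WT libraries (log2 fold change -1.97 ± 0.15), map1lc3a at 5.90 FPKM in mutant and 16.6 FPKM in WT oocytes (log2 fold change -1.35 ± 0.13) and map1lc3b at 22.8 FPKM in mutant and 64.001 FPKM in WT oocytes (log2 fold change -1.44 ± 0.14). The cargo receptor sqstm1 rose (92.6 FPKM in mutant and 55.6 FPKM in WT oocytes, log2 fold change 0.73 ± 0.08).

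Lysosomal hydrolases divided by gene. The list counted 6 higher and 14 lower of 47, or 12.8% and 29.8% beside 19.7% and 29.1% of all genes. The abundant cathepsins ctss2.1 and ctsba rose, ctss2.1 with 2375 and 2474 FPKM in mutant libraries, against 1433 and 1414 FPKM in WT libraries (log2 fold change 0.77 ± 0.08) and ctsba with 1757 FPKM in mutant and 1210.3 FPKM in WT oocytes (log2 fold change 0.54 ± 0.07). The aspartic protease ctsd fell, with 0 and 0.0412 FPKM in mutant libraries, against 15.7 and 11.03 FPKM in WT libraries (log2 fold change -3.80 ± 0.21). The proton pump subunit atp6v0b averaged 25.7 FPKM in mutant and 57.8 FPKM in WT oocytes (log2 fold change -1.12 ± 0.16). Ubiquitin conjugation and removal genes counted 11 higher and 25 lower of 91, and F-box and cullin genes 10 and 13 of 66. F-box proteins choose substrates for ubiquitination, and some of their genes changed by large factors. fbxl14a measured 99.9 and 109 FPKM in mutants, against 16.9 and 16.3 FPKM in WT (log2 fold change 2.58 ± 0.10) and fbxo16 measured 4.90 and 5.06 FPKM in mutants, against 55.7 and 56.4 FPKM in WT (log2 fold change -3.25 ± 0.10). The list of cytosolic chaperones and heat shock genes counted 11 higher and 21 lower of 68, or 16.2% and 30.9%, near the shares of all genes. Its members took in every tested symbol that begins with hsp, also some of the endoplasmic reticulum list, so not all are cytosolic. Within them hspa8, the constitutive HSP70, averaged 721 FPKM in mutant and 498 FPKM in WT oocytes (log2 fold change 0.53 ± 0.11) and hspa13 3.91 FPKM in mutant and 27.002 FPKM in WT oocytes (log2 fold change -2.53 ± 0.15), and the co-chaperone ptges3a measured 0.0396 and 0.0377 FPKM in mutants, against 35.8 and 32.8 FPKM in WT.

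Translation genes showed few shared shifts outside single large changes. Of 84 cytosolic ribosomal proteins 1 was called higher and 12 lower, and 1 and 2 after median-of-ratios scaling. Apart from rpl32 the falls were small, such as rps15a at 1171 FPKM in mutant and 1666 FPKM in WT oocytes (log2 fold change -0.51 ± 0.10). rps20 disagreed between replicates, at 9125 and 1922 FPKM in mutants and 2517 and 4799 FPKM in WT, and was not called. Initiation factors counted 16 higher and 26 lower of 70. The rises were led by eif1axb, eif1b and eif1axa (358 FPKM in mutant and 172 FPKM in WT oocytes, log2 fold change 1.05 ± 0.07), all of which act in scanning for the start codon. The falls were led by eif4ea (log2 fold change -1.98 ± 0.08), the helicase eif4a2 (10.21 FPKM in mutant and 42.2 FPKM in WT oocytes, log2 fold change -1.94 ± 0.19), the cap-binding repressor eif4e2 (7.67 FPKM in mutant and 22.5 FPKM in WT oocytes, log2 fold change -1.44 ± 0.12) and the subunit eif3k (39.03 FPKM in mutant and 92.05 FPKM in WT oocytes, log2 fold change -1.22 ± 0.08). Elongation and termination factors counted 1 higher and 6 lower of 19. Aminoacyl-tRNA synthetase genes counted 0 higher and 13 lower of 37, which became 5 and 11 after median-of-ratios scaling. Ribosome biogenesis factors counted 5 higher and 14 lower of 68 and turned to 12 and 9 under that scaling, and tRNA and rRNA modification enzymes 15 and 26 of 78, against 21 and 21. The genes elp4 and elp5 of the Elongator complex, which modifies wobble bases, fell, elp4 at 4.57 FPKM in mutant and 11.6 FPKM in WT oocytes (log2 fold change -1.17 ± 0.13) and elp5 at 7.09 FPKM in mutant and 17.9 FPKM in WT oocytes (log2 fold change -1.23 ± 0.12). The RNA methylase mettl3, which places N6-methyladenosine on mRNA, rose, at 15.5 FPKM in mutant and 6.95 FPKM in WT oocytes (log2 fold change 1.05 ± 0.13).

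**Figure D4:**
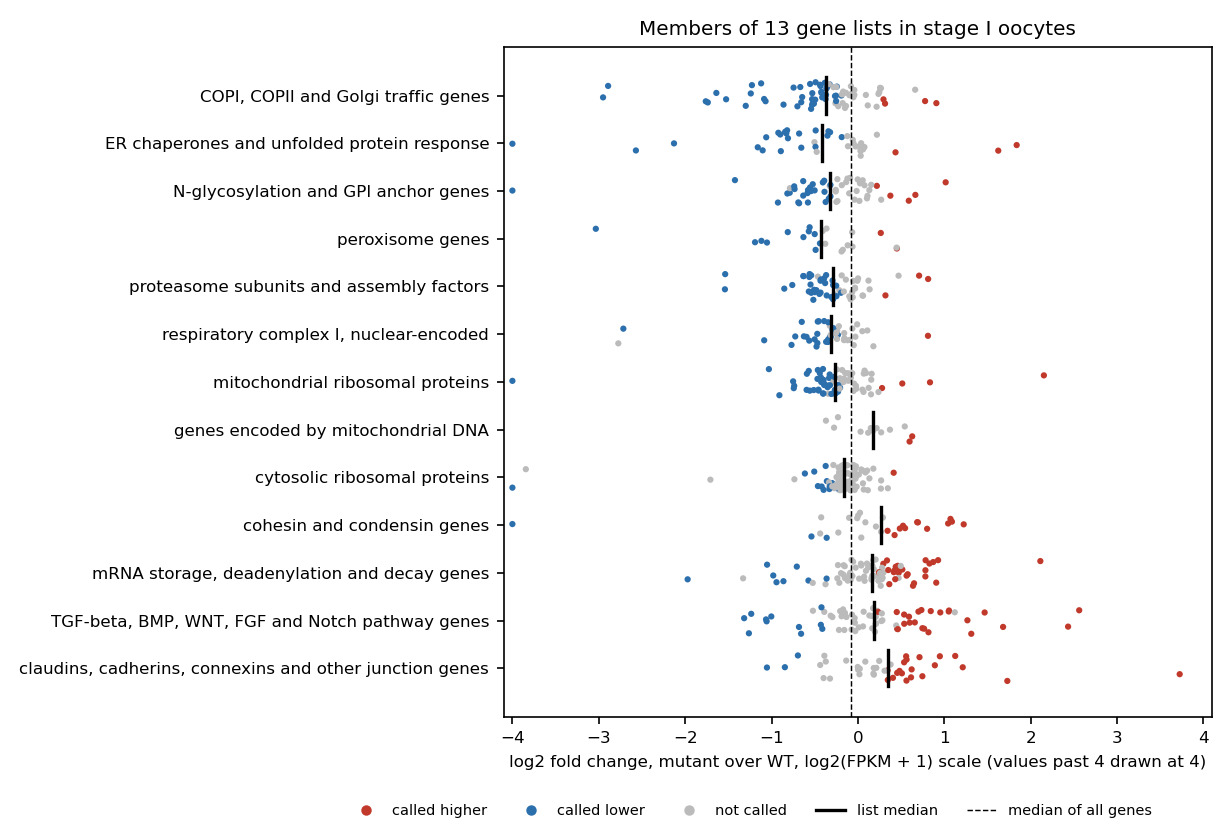
Stage I log2 fold change (mutant over WT, log2(FPKM + 1) scale) of every tested member of 13 gene lists, red when called higher, blue when called lower and grey otherwise. Thick bars are list medians and the dashed line is the median of all genes; 5 members past a log2 value of 4 are drawn at the edge.

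Junction genes were called higher in mutants more often than lower. Of 41 tested claudin, cadherin, connexin and other junction genes 20 were called higher and 3 lower, at a relative median of 0.43. The connexin cx44.2, a gap junction channel protein, measured 51.4 and 50.7 FPKM in mutant libraries, against 3.40 and 2.51 FPKM in WT libraries (log2 fold change 3.73 ± 0.14, adjusted p = 6.3e-07). The epithelial claudin cldn7b measured 55.1 and 54.7 FPKM in mutant libraries, against 18.3 and 13.7 FPKM in WT libraries (log2 fold change 1.73 ± 0.15). Among abundant members the shifts were smaller, with cldng at 4016 and 4199 FPKM in mutant libraries, against 3042 and 3158 FPKM in WT libraries (log2 fold change 0.41 ± 0.09), the connexin cx43.4 at 244 FPKM in mutant and 164 FPKM in WT oocytes (log2 fold change 0.56 ± 0.08), the occludin oclna at 126 FPKM in mutant and 87.9 FPKM in WT oocytes (log2 fold change 0.51 ± 0.06) and the beta-catenin gene ctnnb2, which serves adhesion and WNT signalling, at 183 FPKM in mutant and 108 FPKM in WT oocytes (log2 fold change 0.75 ± 0.09). cldn17 was lower (1.78 FPKM in mutant and 4.78 FPKM in WT oocytes, log2 fold change -1.05 ± 0.16). Tetraspanins, which organise membrane proteins, counted 5 higher and 5 lower of 23. tspan4b measured 0.554 and 0.321 FPKM in mutants, against 29.9 and 31.2 FPKM in WT (log2 fold change -4.46 ± 0.18) and tspan36 63.5 and 60.5 FPKM in mutants, against 188 and 182 FPKM in WT (log2 fold change -1.56 ± 0.07). Solute carriers counted 40 higher and 45 lower of 174, and ion channel genes 10 and 9 of 36, led by kcnn1b, a calcium-activated potassium channel, at 15.2 and 16.01 FPKM in mutants, against 0.262 and 0.134 FPKM in WT (log2 fold change 3.80 ± 0.15). The zinc transporter slc39a7, which releases zinc from the secretory pathway, averaged 57.5 FPKM in mutant and 124 FPKM in WT oocytes (log2 fold change -1.10 ± 0.08).

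Cytoskeletal genes changed in part through copies of the same protein. pfn1, a profilin that feeds actin filament growth, measured 384 and 379 FPKM in mutant libraries, against 71.9 and 83.4 FPKM in WT libraries (log2 fold change 2.29 ± 0.11, adjusted p = 3.4e-06). The cytoplasmic actin actb1 measured 519.5 and 503 FPKM in mutant libraries, against 192 and 223 FPKM in WT libraries (log2 fold change 1.30 ± 0.09), while its copy actb2, not called, averaged 1388 FPKM in mutant and 1284 FPKM in WT oocytes. Actin, myosin and septin genes counted 16 higher and 17 lower of 78, with the tropomyosin tpm4b (0.559 FPKM in mutant and 7.64 FPKM in WT oocytes, log2 fold change -2.46 ± 0.20) and the septin sept5a (3.80 FPKM in mutant and 20.2 FPKM in WT oocytes, log2 fold change -2.14 ± 0.19) among the falls. Tubulins, kinesins and dynein genes counted 25 higher and 13 lower of 77. kif7, a kinesin of Hedgehog signalling, measured 548 and 507 FPKM in mutant libraries, against 149 and 163 FPKM in WT libraries (log2 fold change 1.75 ± 0.10), and the dynein light chain dynll2a averaged 432 FPKM in mutant and 168 FPKM in WT oocytes (log2 fold change 1.36 ± 0.08). Alpha-tubulins moved both ways, tuba1b at 34.1 FPKM in mutant and 9.19 FPKM in WT oocytes (log2 fold change 1.79 ± 0.12) and tuba8l at 45.7 FPKM in mutant and 119 FPKM in WT oocytes (log2 fold change -1.37 ± 0.07).

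In the nucleus, genes for chromosome structure were mostly called higher or not called. Of 27 cohesin and condensin genes 12 were called higher and 3 lower, at a relative median of 0.35. ncapd2, a condensin subunit, measured 75.4 and 83.9 FPKM in mutant libraries, against 39.4 and 34.5 FPKM in WT libraries (log2 fold change 1.09 ± 0.09). The cohesin subunits stag2b (10.3 FPKM in mutant and 4.38 FPKM in WT oocytes, log2 fold change 1.07 ± 0.15) and rad21a (70.9 FPKM in mutant and 40.2 FPKM in WT oocytes, log2 fold change 0.80 ± 0.09) and the regulator pds5a (28.2 FPKM in mutant and 17.2 FPKM in WT oocytes, log2 fold change 0.70 ± 0.15) also rose. Against these, the condensin I partners ncapg, given above, and ncaph (21.4 FPKM in mutant and 31.5 FPKM in WT oocytes, log2 fold change -0.54 ± 0.08) fell. Replication genes counted 21 higher and 17 lower of 59. The origin recognition subunit orc1 rose (54.7 FPKM in mutant and 19.8 FPKM in WT oocytes, log2 fold change 1.43 ± 0.13) while orc5 fell (17.6 FPKM in mutant and 34.8 FPKM in WT oocytes, log2 fold change -0.94 ± 0.09). Repair genes counted 13 higher and 30 lower of 102, and 29.4% lower is close to the 29.1% of all genes. Within this list fancl, the ubiquitin ligase of the Fanconi anaemia pathway, measured 3.55 and 4.04 FPKM in mutant libraries, against 54.6 and 51.1 FPKM in WT libraries (log2 fold change -3.49 ± 0.17). Centrosome, kinetochore and spindle genes counted 28 higher and 25 lower of 105, with haus6, a subunit of the augmin complex that nucleates spindle microtubules, at 981 FPKM in mutant and 491 FPKM in WT oocytes (log2 fold change 0.99 ± 0.10). Cyclins, CDKs and the anaphase-promoting complex counted 16 higher and 33 lower of 93. The abundant maternal cyclins ccnb2 (1446 FPKM in mutant and 972 FPKM in WT oocytes, log2 fold change 0.57 ± 0.08) and ccna1 (1558 FPKM in mutant and 1118 FPKM in WT oocytes, log2 fold change 0.48 ± 0.09) rose, and the subunit anapc15 fell (29.6 FPKM in mutant and 85.2 FPKM in WT oocytes, log2 fold change -1.51 ± 0.11). Early meiotic and oogonial genes counted 5 higher and 3 lower of 13.

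Chromatin genes were mixed. Histone methyltransferases and demethylases counted 15 higher and 7 lower of 62, and ezh2, the enzyme of Polycomb repression, measured 36.2 and 42.5 FPKM in mutant libraries, against 13.2 and 16.9 FPKM in WT libraries (log2 fold change 1.34 ± 0.13). Acetylation and remodelling genes counted 27 higher and 19 lower of 101. The sirtuin family genes sirt7 (0.644 FPKM in mutant and 12.9 FPKM in WT oocytes, log2 fold change -3.08 ± 0.17), sirt4 (0.175 FPKM in mutant and 3.60 FPKM in WT oocytes, log2 fold change -1.96 ± 0.21) and sirt5 (3.02 FPKM in mutant and 8.42 FPKM in WT oocytes, log2 fold change -1.22 ± 0.17) fell. Sirtuins entered this list by symbol alone, whether or not they act on chromatin. By contrast trrap, the scaffold of acetyltransferase complexes, rose (11.99 FPKM in mutant and 3.62 FPKM in WT oocytes, log2 fold change 1.53 ± 0.23). DNA methylation and small-RNA silencing genes counted 12 higher and 5 lower of 33. dnmt1, the maintenance DNA methyltransferase, measured 127 and 147 FPKM in mutant libraries, against 77.8 and 69.998 FPKM in WT libraries (log2 fold change 0.88 ± 0.10), and the Argonaute ago4 averaged 20.7 FPKM in mutant and 9.57 FPKM in WT oocytes (log2 fold change 1.05 ± 0.17). tdrd1, a Tudor protein of the piRNA pathway, measured 0.0154 and 0.0203 FPKM in mutant libraries, against 57.1 and 54.4 FPKM in WT libraries (log2 fold change -5.80 ± 0.11) and so was near 0 in mutants. Histone genes counted 9 higher and 11 lower of 54. Both macroh2a1 (0.552 FPKM in mutant and 3.15 FPKM in WT oocytes, log2 fold change -1.43 ± 0.16) and macroh2a2 (1.75 FPKM in mutant and 8.203 FPKM in WT oocytes, log2 fold change -1.74 ± 0.21), variants linked to silent chromatin, fell. The abundant h2az2a rose (1437 FPKM in mutant and 968 FPKM in WT oocytes, log2 fold change 0.57 ± 0.09). Many core histone mRNAs lack a poly(A) tail, so poly(A)-selected libraries undercount them.

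Genes that store or remove maternal RNA were called higher more often than lower. Of 82 storage, deadenylation and decay genes 25 were called higher and 8 lower, at a relative median of 0.24. The deadenylase parn measured 226 and 248 FPKM in mutant libraries, against 130.1 and 136 FPKM in WT libraries (log2 fold change 0.83 ± 0.09), and the RNA-binding repressor lsm14b averaged 424 FPKM in mutant and 246 FPKM in WT oocytes (log2 fold change 0.78 ± 0.08). The falls included the scaffold of the main deadenylase complex, cnot1 (2.47 FPKM in mutant and 12.5 FPKM in WT oocytes, log2 fold change -1.97 ± 0.19), and the decapping genes dcp2 (14.9 FPKM in mutant and 32.1 FPKM in WT oocytes, log2 fold change -1.05 ± 0.15) and edc3 (8.30 FPKM in mutant and 17.6 FPKM in WT oocytes, log2 fold change -0.98 ± 0.17). Spliceosome genes counted 29 higher and 28 lower of 116, which became 39 and 18 after median-of-ratios scaling. smx5, an Sm-like protein, measured 119 and 116 FPKM in mutant libraries, against 1.598 and 1.95 FPKM in WT libraries (log2 fold change 5.42 ± 0.09). Nuclear pore and transport genes counted 19 higher and 16 lower of 71. The importin kpna7, an oocyte-rich nuclear import receptor, averaged 1595 FPKM in mutant and 1132 FPKM in WT oocytes (log2 fold change 0.49 ± 0.09), and the mRNA export factor rae1 34.6 FPKM in mutant and 144 FPKM in WT oocytes (log2 fold change -2.03 ± 0.08). RNA polymerase subunits and initiation factors counted 17 higher and 19 lower of 88. Here gtf3ab, a TFIIIA-type factor for 5S rRNA genes, measured 83.8 and 77.1 FPKM in mutant libraries, against 0.299 and 0.470 FPKM in WT libraries (log2 fold change 5.88 ± 0.17), and polr2a, the largest subunit of RNA polymerase II, averaged 9.02 FPKM in mutant and 21.2 FPKM in WT oocytes (log2 fold change -1.15 ± 0.09). The germ plasm and Balbiani body list counted 14 higher and 1 lower of 27, at a relative median of 0.42.

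Developmental regulators changed gene by gene. Forkhead, SOX, homeobox and related factors counted 22 higher and 26 lower of 88, and named zinc finger genes 25 and 45 of 135. These are 25% and 29.55%, and 18.5% and 33.3%, near the 19.7% and 29.1% of all genes. foxa, a forkhead factor, measured 81.7 and 94.7 FPKM in mutant libraries, against 0.526 and 0.442 FPKM in WT libraries (log2 fold change 5.91 ± 0.20). gata2b, a factor of blood formation, averaged 11.97 FPKM in mutant and 1.49 FPKM in WT oocytes (log2 fold change 2.38 ± 0.15), and nanog, a maternal activator of the zygotic genome, averaged 374 FPKM in mutant and 239 FPKM in WT oocytes (log2 fold change 0.64 ± 0.09). sox4b fell (0.406 FPKM in mutant and 3.56 FPKM in WT oocytes, log2 fold change -1.71 ± 0.20). In the TGF-beta, BMP, WNT, FGF and Notch list 24 were called higher and 11 lower of 68, at a relative median of 0.27. Its rises included hairy-related repressors, which oscillate in the somite clock downstream of Notch. her2 measured 92.8 and 74.3 FPKM in mutant libraries, against 13.2 and 13.3 FPKM in WT libraries (log2 fold change 2.56 ± 0.30), her7 measured 26.6 and 23.05 FPKM in mutant libraries, against 4.04 and 3.51 FPKM in WT libraries (log2 fold change 2.43 ± 0.12), and her1 averaged 2.31 FPKM in mutant and 0.202 FPKM in WT oocytes (log2 fold change 1.47 ± 0.20). All mutant libraries exceeded all WT libraries for the 3 genes. Its falls included the TGF-beta family receptors tgfbr2b at 12.1 FPKM in mutant and 31.7 FPKM in WT oocytes (log2 fold change -1.32 ± 0.13) and acvr2ab at 0.944 FPKM in mutant and 3.13 FPKM in WT oocytes (log2 fold change -1.06 ± 0.20).

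Hormone and immune genes gave no uniform picture. Steroid, retinoid and prostaglandin enzymes counted 23 higher and 34 lower of 90. The list took in every tested cyp, ugt, sult and star symbol and the co-chaperone ptges3a, so not all members are enzymes of these pathways. Unlike cyp11a1, the steroid genes hsd3b2 and cyp17a1 of the granulosa and theca list rose, hsd3b2 with 184 and 189.5 FPKM in mutants, against 70.4 and 76.9 FPKM in WT (log2 fold change 1.33 ± 0.08) and cyp17a1 with 96.2 and 105 FPKM in mutants, against 47.9 and 47.6 FPKM in WT (log2 fold change 1.05 ± 0.07). They are the 2 members of that list called higher, against 3 called lower. The part of follicle cells in these values was not tested. The retinoid enzymes cyp26a1 and rdh10b rose as well, cyp26a1, which breaks retinoic acid down, at 36.9 FPKM in mutant and 11.8 FPKM in WT oocytes (log2 fold change 1.58 ± 0.12), and rdh10b, which makes its precursor, at 1103 FPKM in mutant and 736 FPKM in WT oocytes (log2 fold change 0.58 ± 0.08). Vitamin D hydroxylase cyp2r1 fell (2.17 FPKM in mutant and 19.05 FPKM in WT oocytes, log2 fold change -2.68 ± 0.19). Interferon, antigen presentation and complement genes counted 22 higher and 15 lower of 84. The guanylate-binding protein gbp1 measured 19.7 and 17.02 FPKM in mutants, against 1.68 and 1.58 FPKM in WT (log2 fold change 2.88 ± 0.14), the NLR-family gene nlrc3 measured 35.9 and 29.1 FPKM in mutants, against 0.165 and 0.1004 FPKM in WT (log2 fold change 4.88 ± 0.17), and the antigen peptide transporter tap1 measured 2.36 and 2.28 FPKM in mutants, against 10.8 and 9.59 FPKM in WT (log2 fold change -1.75 ± 0.14). The leukocyte sums given above were also higher in mutants, and their part in these values was not tested. pmaip1, an activator of apoptosis, averaged 365 FPKM in mutant and 208 FPKM in WT oocytes (log2 fold change 0.80 ± 0.08). The 6 tested sperm and testis genes counted 4 higher and 1 lower, most visibly the mitochondrial quality-control gene spata18 (183 and 173 FPKM in mutants, against 19.5 and 21.5 FPKM in WT, log2 fold change 3.06 ± 0.08).

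Some genes were on in one genotype and off in the other, here at least 5 FPKM in both libraries of a genotype and under 0.5 FPKM in both of the other. This applied to 119 genes, 62 on in mutants (0.486%) and 57 off in mutants (0.447%). Of these, 37 and 35 carried a gene name. prmt7, an arginine methyltransferase, measured 38.9 and 39.98 FPKM in mutants, against 0 and 0 FPKM in WT, and the pannexin channel gene panx3 16.2 and 18.05 FPKM in mutants, against 0 and 0 FPKM in WT. thumpd3, a tRNA methylase subunit, measured 42.3 and 42.9 FPKM in mutants, against 0.0409 and 0.0605 FPKM in WT (log2 fold change 5.37 ± 0.13). In the other direction the cerebral cavernous malformation gene pdcd10a measured 0 and 0 FPKM in mutants, against 33.3 and 34.8 FPKM in WT, the mitochondrial rRNA methylase mrm1 0 and 0 FPKM in mutants, against 19.7 and 17.2 FPKM in WT, and PCP4, a calmodulin-binding peptide gene, 0 and 0 FPKM in mutants, against 33.2 and 16.5 FPKM in WT. Exact zeros in such a table can be failed estimates. The genes etf1b and fbxw11b, neighbours among the tested genes that could be placed, were listed at 0 in both mutant stage I libraries. In WT etf1b measured 100.4 and 95.1 FPKM. However, both genes were also listed at 0 in replicate 1 of each genotype at stage II. Replicate 2 there held 147 FPKM of etf1b in mutants and 129 FPKM in WT. Neither gene was called. Among the tested genes, 15 in mutants and 10 in WT at stage I were listed at 0 in 1 library and at 5 FPKM or more in the other. Counting only genes above 0 in all 4 stage I libraries left 59 on and off genes.

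At stage II the on and off genes did not all keep 1 state. Of the 62 genes on in stage I mutants, 9 met the same rule at stage II, 6 met it in reverse, 9 were on in both genotypes and 8 off in both. Of the 57 genes off in stage I mutants, 8 were also off in mutants and on in WT at stage II, 1 was reversed, 11 were on in both and 9 off in both. The rest lay between these limits in mutants, in WT or in both. In the fit at stage II, 28 of the 62 genes were called higher, 17 lower and 17 were not called. Of the 57 genes, 25 were called lower, 12 higher and 20 were not called. Over all genes 25% were called higher and 19.3% lower at that stage. The largest reversal was that of si:dkey-241l7.3, with 0 and 0 FPKM in mutant libraries, against 672 and 440.2 FPKM in WT libraries at stage II, and si:dkey-241l7.4 likewise had 2.26 and 3.18 FPKM in mutant libraries, against 520.4 and 357 FPKM in WT libraries. gtf3ab also reversed, with 0.134 and 0 FPKM in mutant libraries, against 24.9 and 32.2 FPKM in WT libraries at stage II. prmt7 had 0 and 0 FPKM in mutant libraries, against 26.98 and 21.4 FPKM in WT libraries and thumpd3 0.0464 and 0.0454 FPKM in mutant libraries, against 29.4 and 28.1 FPKM in WT libraries at that stage. For all 3 genes mutants were above WT at stage I and below WT at stage II. cyp11a1 came back, with 278 and 261 FPKM in mutant libraries, against 53.5 and 82.4 FPKM in WT libraries, and alg14 likewise, with 42.1 and 49.1 FPKM in mutant libraries, against 29.3 and 36.8 FPKM in WT libraries. kmt5ab stayed near 0 in mutants, with 0.0922 and 0.0457 FPKM in mutant libraries, against 63.5 and 55.8 FPKM in WT libraries.

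Across all genes the stage I differences carried over to stage II in part. The same genes tested at stage II gave 5649 calls (44.3%), 3187 higher (25%) and 2462 lower (19.3%). These counts are without further scaling. Median-of-ratios factors were 1.18 and 1.19 in mutant and 1.07 and 1.11 in WT stage II libraries. By these factors unscaled mutant values leaned high at stage II. The fold changes at stage II share no sample with those at stage I. The tests do share the spread estimate of each gene, which was pooled over the libraries of both stages. Calls at stage I and stage II are therefore not independent, and a gene with a small pooled spread is more readily called at both. Called in the same direction at both stages were 2328 genes, which is 37.4% of the stage I calls and 41.2% of the stage II calls, 1124 higher and 1204 lower. Called in opposite directions were 841 genes, 290 of them higher at stage I and lower at stage II and 551 lower and then higher. After median-of-ratios scaling 2319 genes were called in the same direction and 781 in opposite directions. Their split into rises and falls under that scaling is not given here. The genotype difference itself differed between stages, by the interaction term of the same fit, for 4704 genes (36.9%).

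**Figure D5:**
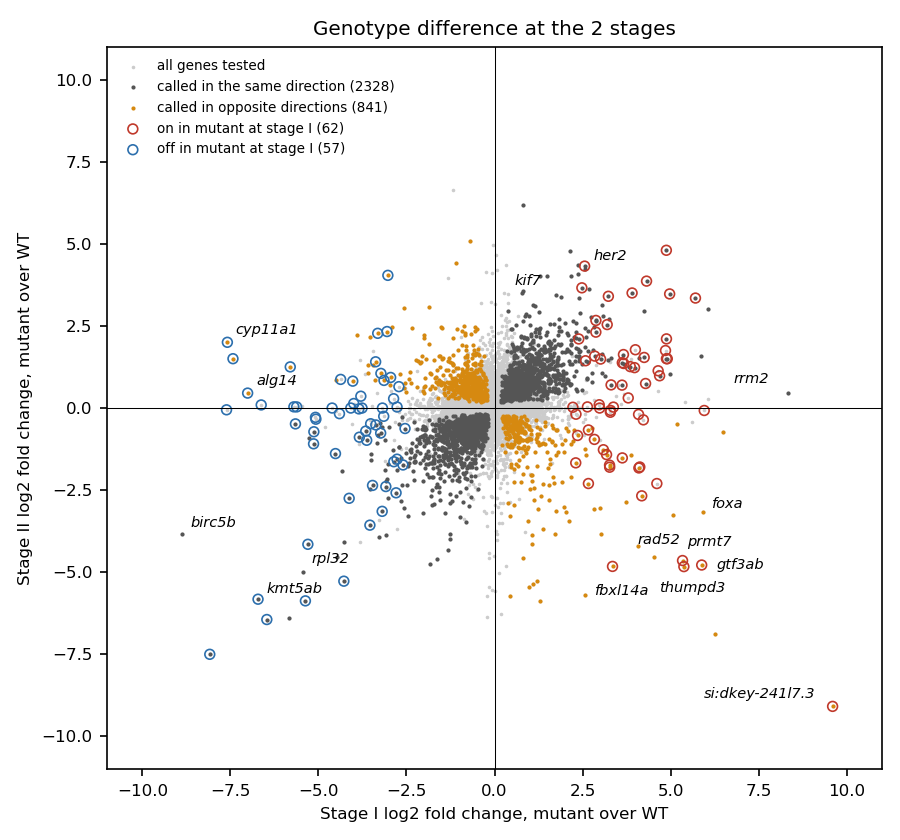
Log2 fold change of mutant over WT at stage II (vertical axis) against that at stage I (horizontal axis) for the 12754 genes tested. Dark grey points are 2328 genes called in the same direction, orange points 841 called in opposite directions, and rings mark the 62 genes on and the 57 genes off in stage I mutants.

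Rises shared by the stages included kif7, with 276 and 285 FPKM in mutant libraries, against 22.6 and 27.9 FPKM in WT libraries at stage II, her2, with 49.6 and 53.1 FPKM in mutant libraries, against 0.865 and 3.08 FPKM in WT libraries, and actb1, with 913 and 865 FPKM in mutant libraries, against 189 and 209 FPKM in WT libraries. kras was above WT at both stages, with 70.3 and 75.6 FPKM in mutant libraries, against 9.45 and 7.82 FPKM in WT libraries at stage II. Shared falls included rpl32, with 8.85 and 5.14 FPKM in mutant libraries, against 204 and 294 FPKM in WT libraries, and tspan4b, with 0.472 and 0.707 FPKM in mutant libraries, against 31.01 and 41.6 FPKM in WT libraries. The F-box gene fbxl14a reversed, with 0 and 0 FPKM in mutant libraries, against 51.9 and 49.3 FPKM in WT libraries, as did the recombination gene rad52, with 0.791 and 0 FPKM in mutant libraries, against 33.6 and 26.8 FPKM in WT libraries. zp2.6, raised in stage I mutants, was below WT at stage II, with 87.7 and 87.1 FPKM in mutant libraries, against 759 and 692 FPKM in WT libraries. The connexin cx44.2 showed the same reversal, with 3.64 and 3.41 FPKM in mutant libraries, against 33.1 and 30.2 FPKM in WT libraries. rrm2 under ENSDARG00000078069 was above WT at stage II too, by a smaller factor, with 349 and 327 FPKM in mutant libraries, against 283 and 214 FPKM in WT libraries.

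The counts of called members of some gene lists were not alike at the stages. Over all genes 25% were called higher and 19.3% lower at stage II, and 36.9% were called for the interaction. The stage II counts of lists are given only without further scaling, where mutant values leaned high. Secretory pathway genes counted 5 higher and 22 lower at stage II, and proteasome genes 4 and 23, so that falls still outnumbered rises. Ribosomal proteins, of which 12 were lower at stage I, counted 0 higher and 54 lower at stage II, and 15 (17.9%) had a called interaction. Lysosomal genes counted 16 higher and 3 lower, with 25 of 47 (53.2%) called for the interaction. Peroxisome genes counted 6 higher and 3 lower, with 12 of 22 (54.5%). RAB genes counted 16 higher and 9 lower, and their 21 of 56 interaction calls (37.5%) are close to the share of all genes. Junction genes counted 15 higher and 6 lower at stage II.

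The zebrafish genome holds many pairs of gene copies named a and b, which permits a look at whether copies moved together. This count was chosen after values were seen. Both copies were tested for 932 pairs. In 48 pairs both were called higher and in 100 both lower, in 89 they were called in opposite directions, in 451 only 1 was called and in 244 neither. Over all genes tested 19.7% were called higher and 29.1% lower, so unrelated genes would also give pairs of each kind. Whether copies moved together or apart more often than unrelated genes was not tested. Of these opposite pairs 20 retained both calls with each stage I library left out. For the initiation factor subunit eif3e, eif3ea averaged 168 FPKM in mutant and 84.03 FPKM in WT oocytes (log2 fold change 0.99 ± 0.07) and eif3eb 7.405 FPKM in mutant and 16.2 FPKM in WT oocytes (log2 fold change -1.03 ± 0.20). For the Polycomb protein cbx8, cbx8b averaged 10.3 FPKM in mutant and 0.873 FPKM in WT oocytes (log2 fold change 2.76 ± 0.41) and cbx8a 6.69 FPKM in mutant and 13.3 FPKM in WT oocytes (log2 fold change -0.89 ± 0.15). How reads were divided between copies alike in sequence was not tested.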

How the data were processed

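Polyadenylated RNA was sequenced from 2 znf706 mutant and 2 WT libraries of stage I oocytes and as many of stage II. Trim Galore, STAR 2.5.3a, Cufflinks 2.2.1 and the build danRer11 are named in the submitters' processing notes, without their roles. The deposited values are FPKM per gene by the authors, in a merged table of 32197 rows. Exact duplicate rows (24) were merged, and 103 gene IDs with conflicting rows were left out, since no row could be preferred. The 3 CUT&Tag libraries of the series were not analysed here.

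Genes that reached 1 FPKM in 2 or more of the 4 stage I libraries were tested on log2(FPKM + 1), without further scaling, by limma 3.58.1 in R 4.3.3. A linear model held 4 group means over the 8 libraries, with empirical Bayes moderation and a trend (4 residual and 4.12 prior degrees of freedom). Stage II libraries add to the spread estimate and give the stage II and interaction contrasts. Tests were two-sided, p-values were Benjamini-Hochberg adjusted over all 12754 genes, and calls are adjusted p under 0.05. Fold changes on this scale understate those of low genes. Nothing says that libraries came from separate fish, so p-values measure the spread between these libraries. Library size effects were checked through scaling alternatives, and the fit was tested on simulated data. Same-numbered mutant and WT stage I libraries did not deviate together (r = 0.064 across genes), so replicate numbers were not treated as pairs.

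The genes, the 63 gene lists and the tests were chosen with earlier results of these data known. Lists were matched by symbol and are described by counts and medians, with no set test. Named genes followed a rule: znf706, the 40 largest named rises and falls and the 20 most abundant 2-fold changes in each direction among calls kept with each stage I library left out, and up to 4 members in each direction and the 5 most abundant of each list. The text describes a selection. Genes outside the rule (birc5a, etf1b, fbxw11b, arhgdig apart from its list, the clone-named genes, and the a and b copies given at the end of the report) were picked with their values in view. The alternatives comprised other pseudocounts, filters, scalings, priors, thresholds, a replicate block and leaving out each library. A few genes and lists are not reported here.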

Additional observations from a re-analysis of the deposited data

Results flagged for a closer look

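The genotype difference was not the same at stage I and stage II for many genes, by the interaction term of the limma fit (stage I log2 fold change minus stage II log2 fold change, Benjamini-Hochberg adjustment). It was called for 4704 of 12754 genes, and 841 genes were called in opposite directions at the 2 stages. All values below are log2 units on the log2(FPKM + 1) scale, mutant over WT, so for genes listed at 0 in a group they depend on the pseudocount and are no bound.

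Among genes described in the report, several were above WT in stage I mutants and below WT in stage II mutants. The interaction was 18.69 for si:dkey-241l7.3, 13.14 for si:dkey-241l7.4, 10.66 for gtf3ab, 10.21 for thumpd3, 9.98 for prmt7 and 9.06 for rad52. It was 8.27 for the F-box gene fbxl14a, 6.58 for the connexin cx44.2 and 6.04 for the envelope gene zp2.6. rrm2 under ENSDARG00000078069 had 7.87, with a small difference at stage II (0.46 ± 0.14). In the other direction cyp11a1 had -9.59 and alg14 -7.47, both near 0 in stage I mutants and above WT in stage II mutants. Smaller interactions were found for genes that kept their direction, 1.29 for kras, -0.85 for actb1, -1.68 for her2, -1.68 for kif7 and -0.89 for kmt5ab. With 2 libraries in each group, no library could be tested as standing apart.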

How the results depend on the processing

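Counts of calls held within 1.5 times of the reported ones under most alternatives. A pseudocount of 5 left 710 calls of at least 2-fold, and a mean of at least 5 FPKM left 972, with 1665 genes called higher; this filter tests fewer genes. At an adjusted p under 0.01 there were 4104 calls at stage I, 1673 higher and 2431 lower, 1227 shared with stage II in direction, 337 opposite and 2525 interactions. On and off genes numbered 66 with at least 10 FPKM and under 0.5 FPKM, and 59 when genes listed at 0 in a stage I library were left out, an alternative chosen after seeing the data. Leaving out 1 stage I library at a time gave 4477 to 5342 calls, 1764 to 2109 shared in direction with stage II, and 559 to 911 opposite ones, the lowest without mutant replicate 2. The fits that leave out a library take the lone sample to vary like the other groups. With the replicate block the calls were 5988 over 8 libraries and 6431 over the 4 stage I libraries, and shared calls 2182; the numbers did not pair the libraries. The settings were not followed for si:dkey-241l7.2 and for arf5 under ENSDARG00000070472. Of the other genes named here that were called at stage I, none turned in sign under the 16 settings. The genes cldng (adjusted p = 0.067 with the block over 4 libraries), gdi2 (0.052 with a robust prior) and rps15a (0.053 after median-of-ratios scaling) lost their call in limma under 1 setting each. birc5a, not called as reported, was called higher after quantile normalization and without mutant replicate 2. The relative medians of 25 of the 63 gene lists turned in sign under at least 1 setting, and their reported sizes were at most 0.26. Erythrocyte and thrombocyte markers had no value at a mean of at least 5 FPKM, since no member was left, and fits on the 4 stage I libraries give no stage II counts. Causes were not tested. Unknown depth limits what low FPKM can show.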

Other observations

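A few RNAs of tissues far from the oocyte stood among the largest rises. The pancreatic elastase gene cela1.6 measured 22.3 and 10.4 FPKM in mutants, against 0.213 and 0.522 FPKM in WT (log2 fold change 3.58 ± 0.39), and the chymotrypsinogen gene ctrb1 measured 14.6 and 5.15 FPKM in mutants, against 0 and 0 FPKM in WT. The brain fatty acid binding protein fabp7a measured 9.33 and 10.1 FPKM in mutants, against 0 and 0.197 FPKM in WT (log2 fold change 3.29 ± 0.16), and the neuronal transgelin tagln3b 11.3 and 12.3 FPKM in mutants, against 0.0585 and 0.0120 FPKM in WT (log2 fold change 3.63 ± 0.41). Signalling adaptors were among the largest falls. grb2a, which links receptors to RAS, measured 0.759 and 0.590 FPKM in mutants, against 20.9 and 17.3 FPKM in WT (log2 fold change -3.58 ± 0.14), and nck1a, which links receptors to actin, 1.26 and 0.936 FPKM in mutants, against 25.1 and 21.8 FPKM in WT (log2 fold change -3.54 ± 0.22).

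The nearest tested genes to either side of the on and off genes were counted on the gene order of the RefSeq assembly GRCz12tu. That assembly is not the build of the files. Untested genes and genes that could not be placed were skipped, so these neighbours need not be adjacent. Of the 119 on and off genes 76 could be placed, and they had 145 tested neighbours that were not on or off themselves. Of these neighbours 60.7% were called at stage I and 26.2% with at least 2-fold change, beside 48.8% and 14.3% of all genes tested. This count was chosen after values were seen and carries no test.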
